A study of Mus musculus with 12 samples.

Results

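The cartilage fibril collagens are the chains that build the thin collagen fibrils of cartilage, and 7 genes encode those described here: Col2a1 for type II collagen, Col9a1, Col9a2 and Col9a3 for type IX, Col11a1 and Col11a2 for type XI, and Col27a1 for type XXVII. They were chosen by gene symbol as collagen chains of cartilage fibrils and make up 7 of the 17536 genes in the deposited RNA-seq values. The study examined the transcription factor Runx3 in articular cartilage, the tissue that covers joint surfaces. Chondrocytes were isolated from the joint ends of the femur and tibia of 5-day-old C57BL/6J mice, with the superficial zone (SFZ) released by a first digestion and the deep zone (DZ) by further digestion of the residue, and were grown as monolayers. R3-Cntl mice were Runx3 fl/fl, and R3-cKO mice were Col2a1-Cre; Runx3 fl/fl, so both genotypes carry the floxed Runx3 alleles and R3-cKO mice also carry a Cre recombinase driven by regulatory sequence of Col2a1, itself among the 7 genes. There were 4 groups by zone and genotype with 3 libraries in each, 12 in all, numbered 1 to 3.

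Type II collagen forms the bulk of the cartilage fibril, and its triple helix contains only chains from Col2a1. Type XI collagen lies within the fibril and limits its diameter, with chains from Col11a1, Col11a2 and Col2a1. Type IX collagen joins chains from Col9a1, Col9a2 and Col9a3 and sits on the fibril surface, cross-linked to type II collagen, while type XXVII is a fibrillar collagen of cartilage found in thin fibrils of its own.

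Each value is in FPKM, fragments mapped to a gene scaled by transcript length and library size, so levels can be compared between genes of different length. The unit was inferred from the values, which are not counts. They summed to between 392241 and 429213 FPKM per library. The steps between low values correspond to an estimated depth of 25 M to 29.4 M fragments per library (median 26.7 M), an approximate figure that puts the cartilage fibril collagens far above the level where counting error matters. The spread between libraries is therefore the error that counts here, and p-values measure only that spread.

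Runx3 (Entrez gene 12399), the targeted gene, measured 10.7, 5.98 and 6.65 FPKM in SFZ R3-Cntl libraries 1, 2 and 3, against 11.8, 9.07 and 3.42 FPKM under the R3-cKO label. DZ values were 12.7, 12.7 and 7.66 FPKM for R3-Cntl against 15.95, 12.7 and 8.14 FPKM under the R3-cKO label. The genotypes overlapped in both zones and Runx3 was not lower in the R3-cKO libraries, which are therefore named by their label wherever a direction between genotypes is given. A value per gene does not show whether the floxed part was present. The limma log2 difference was -0.04 in the SFZ (standard error 0.43, adjusted p = 1) and 0.13 in the DZ (standard error 0.28, adjusted p = 0.999). The paper reports the lubricin gene Prg4 as lower in R3-cKO SFZ cells and the aggrecan gene Acan as lower in R3-cKO DZ cells. Those levels came from qRT-PCR, and the paper reports that Runx3 overexpression restored them. For its RNA-seq the paper also lists Prg4 among the genes most reduced in R3-cKO SFZ cells, as evaluated by DESeq2. The values that follow come from limma on the deposited values, which is a different test. By label, Prg4 differed by -1.45 in the SFZ and 0.63 in the DZ (unadjusted p = 0.0307 and 0.139 in limma). Acan differed by -0.41 in the DZ (unadjusted p = 0.252 in limma), and none of these was called.

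The 4 Y-linked genes Ddx3y, Eif2s3y, Kdm5d and Uty differed between libraries of the same label. They summed to 42.9, 12.1 and 52.4 FPKM in SFZ R3-Cntl libraries 1, 2 and 3, against 28.3, 0.06 and 0.03 FPKM in SFZ R3-cKO. DZ sums came to 40.0, 16.8 and 17.0 FPKM for R3-Cntl against 29.6, 0.01 and 0.03 for R3-cKO. Libraries 2 and 3 labelled R3-cKO were thus at or near 0 in both zones, all 6 R3-Cntl libraries were above 12 FPKM, and Eif2s3y was the most abundant gene. In those R3-cKO libraries 2 of the 4 genes were at 0 in the SFZ and 3 in the DZ. Between R3-Cntl and those R3-cKO libraries, genotype and the absence of Y-linked transcripts cannot be told apart.

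The gene models of mm9, the build named for the mapping, place the members on 6 chromosomes, with Col9a2 and Col27a1 both on chromosome 4. Col2a1 (Entrez gene 12824) lies at chr15:97806033-97835155 on the reverse strand. Col11a1 (12814) lies at chr3:113733458-113923636, and Col11a2 (12815) at chr17:34176382-34203630, both on the forward strand. The type IX genes are also on the forward strand, with Col9a1 (12839) at chr1:24184449-24259577, Col9a2 (12840) at chr4:120711990-120727927 and Col9a3 (12841) at chr2:180332495-180356894. Col27a1 (373864) is at chr4:62875038-62996025 on the forward strand.

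All 7 members are cut into many short coding exons, a feature that their choice by symbol did not use. In the longest coding transcript, Col11a1 has 67 coding exons, Col11a2 66, Col27a1 61 and Col2a1 54, and the type IX genes have 38 (Col9a1), 32 (Col9a2) and 32 (Col9a3). The median over 22372 protein-coding genes was 6. A length of 54 bp, which encodes whole Gly-X-Y repeats of the collagen helix, occurred 33 times in Col27a1, 31 times each in Col11a1 and Col11a2, 24 times in Col2a1 and 14 times in each type IX gene. Of 197004 coding exons in the annotation 1293 had that length (0.656%), and 17 genes had at least 10 of them. Exons whose length is a multiple of 9 bp, the length of a single Gly-X-Y codon triplet, made up 86.9% in Col27a1, 83.3% in Col2a1, 80.6% in Col11a1, 78.8% in Col11a2, 71.9% in Col9a2, 65.6% in Col9a3 and 57.9% in Col9a1, against 14.5% of all coding exons. The fibrillar chains thus carry more such exons than the shorter, interrupted chains of type IX collagen, as the plot of coding exons by length shows.

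**Figure D1:**
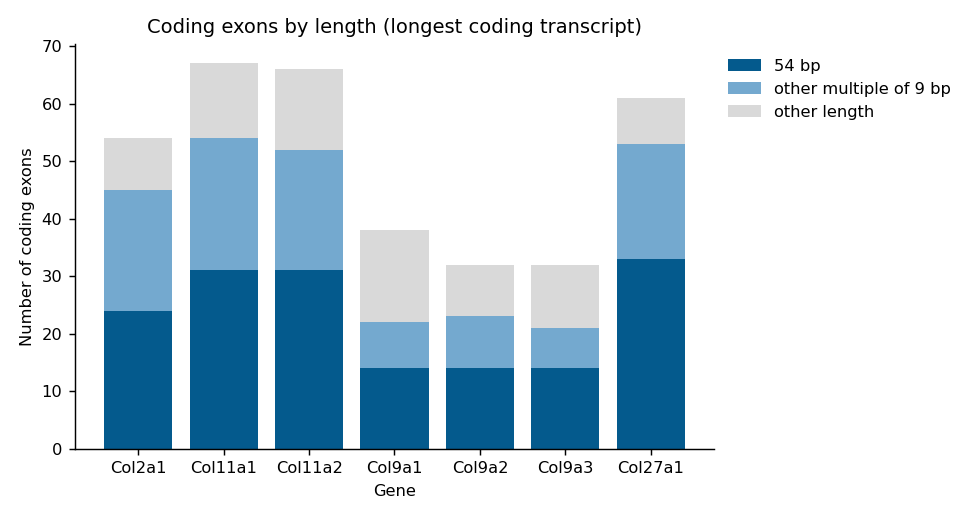
Number of coding exons of each gene (vertical axis) in its longest coding transcript of the mm9 annotation, stacked by exon length. Exons of 54 bp number 33 in Col27a1 and 14 in each of Col9a1, Col9a2 and Col9a3.

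Promoter sequence from RefSeq (build GRCm38.p6, 250 bases before to 50 bases after a start site) was matched for 5 of the 7 members, with 6 start sites because Col9a1 has 2. None was matched for Col2a1 or Col9a3. Promoters are shown for 4 of the members found higher in the DZ in the zone comparison given after the levels: both starts of Col9a1 (chr1:24177360-24177659 and chr1:24194953-24195252), Col11a1 (chr3:114030290-114030589), Col11a2 (chr17:34038888-34039187) and Col27a1 (chr4:63215162-63215461), all on the forward strand and written 5′ to 3′. Capitals mark matches, on either strand, to the GC box letters GGGCGG, the TATA letters TATAAA, or the RUNX letters TGTGGC (in Col11a2) and TGCGGC (in Col27a1).
Col9a1 start 1: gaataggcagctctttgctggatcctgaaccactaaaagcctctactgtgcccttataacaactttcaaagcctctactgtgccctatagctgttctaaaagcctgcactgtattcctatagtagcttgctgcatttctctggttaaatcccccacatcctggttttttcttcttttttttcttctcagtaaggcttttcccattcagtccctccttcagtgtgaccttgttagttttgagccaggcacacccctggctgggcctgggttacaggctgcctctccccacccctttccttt
Col9a1 start 2: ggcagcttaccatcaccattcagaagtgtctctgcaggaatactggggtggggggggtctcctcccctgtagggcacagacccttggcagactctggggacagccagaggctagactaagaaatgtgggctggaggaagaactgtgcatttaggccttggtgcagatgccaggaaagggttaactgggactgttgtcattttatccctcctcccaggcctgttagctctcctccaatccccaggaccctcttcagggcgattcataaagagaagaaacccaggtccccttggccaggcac
Col11a1: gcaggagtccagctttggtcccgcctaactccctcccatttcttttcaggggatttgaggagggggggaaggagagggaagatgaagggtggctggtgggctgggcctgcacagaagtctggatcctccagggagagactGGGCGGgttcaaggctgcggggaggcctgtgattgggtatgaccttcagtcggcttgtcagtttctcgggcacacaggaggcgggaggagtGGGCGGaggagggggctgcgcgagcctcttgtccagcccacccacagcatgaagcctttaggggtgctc
Col11a2: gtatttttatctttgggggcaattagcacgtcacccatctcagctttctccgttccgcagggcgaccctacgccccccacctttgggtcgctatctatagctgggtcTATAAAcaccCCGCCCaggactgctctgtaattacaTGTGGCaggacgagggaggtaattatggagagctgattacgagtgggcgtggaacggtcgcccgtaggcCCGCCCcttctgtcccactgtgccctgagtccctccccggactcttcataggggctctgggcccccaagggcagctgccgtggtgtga
Col27a1: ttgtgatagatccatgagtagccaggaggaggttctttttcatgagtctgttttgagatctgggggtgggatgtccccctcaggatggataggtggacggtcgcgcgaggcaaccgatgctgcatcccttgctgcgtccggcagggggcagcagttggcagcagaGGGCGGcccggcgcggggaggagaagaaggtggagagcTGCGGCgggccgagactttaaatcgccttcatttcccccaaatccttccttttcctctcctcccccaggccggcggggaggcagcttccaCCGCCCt

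GGGCGG occurred 2 times each in the windows of Col11a1, Col11a2 and Col27a1 and 3 times in that of Col9a2, and 35.7% of the 32851 promoters in the table hold it. TATAAA occurred 1 time, in Col11a2, and 13.6% of all promoters hold it. Of the letters bound by RUNX factors, TGTGGC (18.9% of promoters) occurred 1 time, in Col11a2, and TGCGGC (12.4%) 1 time, in Col27a1, while TGTGGT (16.8%) and TGCGGT (6.45%) were in none of the 6 windows on either strand. The letters bound by SOX factors, searched as ACAAAG (18.7%) and ACAATG (12.6%), were also in none. Neither Col9a1 window held any of the 8 motifs. GC content was 62.3% for Col11a1, 61.7% for Col27a1 and for Col9a2, 59.0% for Col11a2, and 47.3 and 55.7% for the Col9a1 starts, against a median of 52.7%. A match is a description of letters, and its absence says only that they are not in these windows.

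Col2a1 was the most abundant member in every library. It measured 9229, 3241 and 6728 FPKM in SFZ R3-Cntl libraries 1, 2 and 3, against 8275, 5019 and 3049 FPKM for SFZ R3-cKO. DZ libraries held 22791, 14219 and 17525 FPKM for R3-Cntl against 15594, 11248 and 17839 for R3-cKO. Each DZ library was above each SFZ library, and within a zone the genotypes overlapped. Col2a1 ranked 1 among all genes in all 6 DZ libraries and in SFZ R3-Cntl libraries 1 and 3 and R3-cKO library 1, and it ranked 4, 2 and 7 in SFZ R3-Cntl library 2, R3-cKO library 2 and R3-cKO library 3. It supplied 66.3 to 78.9% of the summed FPKM of the 7 members, and that sum was 1.08 to 3.14% of all FPKM in an SFZ library and 3.50 to 7.20% in a DZ library.

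Of the type XI chains, Col11a1 measured 1314, 689.7 and 854 FPKM in SFZ R3-Cntl libraries 1, 2 and 3, against 1096, 777 and 804 FPKM for SFZ R3-cKO. Its DZ level was 2201, 1862 and 2599.6 FPKM for R3-Cntl against 1532, 1288 and 2146 for R3-cKO. Col11a1 was the member that varied least within the SFZ, with a highest library 1.91 times the lowest, and a single DZ library, R3-cKO 2, was below the highest SFZ library. Col11a2 measured 671, 172 and 303 FPKM for SFZ R3-Cntl against 520.1, 284 and 231 for SFZ R3-cKO. In the DZ, Col11a2 was at 1144, 848 and 959.6 FPKM for R3-Cntl against 651, 465 and 737 for R3-cKO. All 3 R3-cKO DZ libraries lay below the 3 R3-Cntl DZ libraries for Col11a2, which is the only member whose DZ genotypes did not overlap.

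Of the type IX chains, Col9a1 measured 906, 190.2 and 379 FPKM in SFZ R3-Cntl libraries 1, 2 and 3, against 623, 361 and 254 FPKM for SFZ R3-cKO. In the DZ it was at 1887, 1219 and 1555 FPKM for R3-Cntl against 1145, 655 and 1392 for R3-cKO. Within each genotype the zones of Col9a1 did not overlap. Col9a2 measured 541, 63.5 and 181 FPKM for SFZ R3-Cntl against 442, 159 and 69.1 for SFZ R3-cKO. Its DZ level was 1182, 558 and 675 FPKM for R3-Cntl against 593, 207 and 574 for R3-cKO. Col9a2 was the member that varied most within a zone, with a highest library 8.52 times the lowest in the SFZ and 5.70 times in the DZ. Col9a3 measured 735, 113 and 232 FPKM for SFZ R3-Cntl against 522, 289 and 147 for SFZ R3-cKO. DZ values of Col9a3 were 1278, 673 and 679 FPKM for R3-Cntl against 681, 338 and 661 for R3-cKO. Its zones overlapped in both genotypes.

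Col27a1 was the least abundant member in every library. It measured 69.4, 26.7 and 39.2 FPKM in SFZ R3-Cntl libraries 1, 2 and 3, against 51.7, 48.4 and 44.1 FPKM for SFZ R3-cKO. DZ values were 125, 117 and 181 FPKM for R3-Cntl against 78.85, 63.0 and 133 for R3-cKO. Within each genotype its zones did not overlap, and DZ R3-cKO library 2 was the single DZ library below SFZ R3-Cntl library 1.

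**Figure D2:**
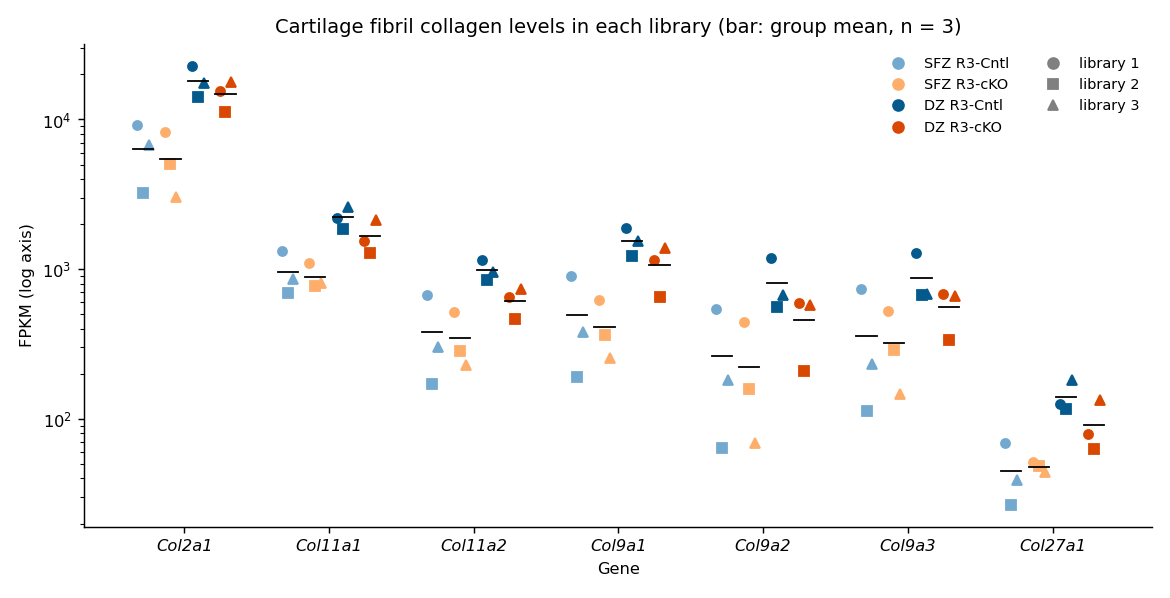
Level of each gene in FPKM (log axis) in each of the 12 libraries, with color for zone and genotype, marker shape for the library number and a bar at each group mean (n = 3). Col2a1 lies between 3049 and 22791 FPKM and Col27a1 between 26.7 and 181 FPKM.

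By mean level over the 12 libraries the order was Col2a1 (11229.8 FPKM), Col11a1 (1430.4 FPKM), Col9a1 (880.4 FPKM), Col11a2 (582 FPKM), Col9a3 (529 FPKM), Col9a2 (437 FPKM) and Col27a1 (81.45 FPKM). Neighbours kept this order in 12 of 12 libraries, except Col11a2 and Col9a3, which kept it in 7 of 12 and whose ratio ran from 0.895 to 1.57. That pair therefore did not differ beyond its spread. The libraries also had a shared order: SFZ R3-Cntl 1 was the highest SFZ library for all 7 members, DZ R3-cKO 2 was the lowest DZ library for all 7, and SFZ R3-Cntl 2 was the lowest SFZ library for 6, with SFZ R3-cKO 3 lowest for Col2a1.

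All 7 members had a higher mean level in the DZ, at 2.89 times the SFZ mean for Col9a1, 2.79 for Col2a1, 2.60 for Col9a2, 2.50 for Col27a1, 2.21 for Col11a2, 2.12 for Col9a3 and 2.10 for Col11a1. Among library pairs of the same genotype and number, the DZ library was the higher in 6 of 6 for all 7 members, which held for 7.07% of the genes tested, though values over all genes did not pair SFZ R3-Cntl libraries 2 and 3 by number. The zones were fully separate over the 12 libraries for Col2a1 alone (1.64% of genes), over the R3-Cntl libraries for 6 of 7 members, all but Col9a3 (5.96%), and over the R3-cKO libraries for 4 of 7, Col2a1, Col9a1, Col11a1 and Col27a1 (4.24%). In such bulk samples, fewer chondrocytes in a library and less collagen RNA per chondrocyte cannot be told apart.

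In limma with genotype as a term, over 11765 genes that reached 1 FPKM in 3 or more libraries, 5 of 7 members were called higher in the DZ at an adjusted p under 0.05, where 23.2% of genes were called in either direction and 4.3% higher in the DZ. The log2 difference, on log2(FPKM + 1), was 1.57 for Col2a1 (standard error 0.30, adjusted p = 0.00531) and 1.66 for Col9a1 (0.37, adjusted p = 0.00973). The type XI chains differed by 1.07 for Col11a1 (0.19, adjusted p = 0.00424) and 1.24 for Col11a2 (0.32, adjusted p = 0.0184), and Col27a1 by 1.28 (0.27, adjusted p = 0.00757). Col9a2 and Col9a3 were not called, at 1.66 (0.57, adjusted p = 0.0546) and 1.28 (0.46, adjusted p = 0.0634), and they are the members with the widest spread within a zone. Both passed when SFZ R3-Cntl library 1 (adjusted p = 0.0328 and 0.0280), SFZ R3-cKO library 1 (0.0248 and 0.0381) or DZ R3-cKO library 2 (0.0338 and 0.0450) was left out. A block for the library number called 7 members and 3965 genes. It includes SFZ R3-Cntl libraries 2 and 3, which values over all genes did not pair by number. The median member differed by 1.28 and the median gene by -0.14. Scaling moved that background, from 506 genes higher and 2219 lower in the DZ to 1237 and 915 with quantile normalization and 1053 and 1088 with median-of-ratios size factors, and the median gene to 0.03 and 0.00, while all 7 members stayed higher in the DZ. Quantile normalization is named in the study's methods, although the deposited values are not so scaled. Under it Col2a1 was no longer called (0.77, adjusted p = 0.158 in limma). That scaling gives the gene of rank 1 the same value in each library. Col2a1 ranked 1 in every DZ library and in SFZ R3-Cntl 1, SFZ R3-Cntl 3 and SFZ R3-cKO 1. Nor was Col2a1 called without a filter on low values (adjusted p = 0.156 in limma). Col9a2 was called with median-of-ratios size factors (adjusted p = 0.0481 in limma). Without SFZ R3-Cntl library 2, the count of genes called was 1624.

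Within a single genotype, 3 libraries met 3. With no library left out and no block for the library number, no member was called in either genotype fitted alone. In R3-Cntl, limma called 0 of 7 members and 1.24% of 11336 genes, with the members' adjusted p between 0.0629 and 0.172, and 7 of 7 had an unadjusted p under 0.05 with the DZ higher, against 4.94% of genes. That background of 560 genes was 1685 with quantile normalization, where 6 members passed, and 1338 with median-of-ratios size factors, where 7 did. The members' log2 differences ran from 1.26 for Col11a1 to 2.04 for Col9a2. Without SFZ R3-Cntl library 2 that of Col9a2 was 1.28 and that of Col9a3 went from 1.64 to 1.01. Without SFZ R3-Cntl library 1, 505 genes and 6 members were called, all but Col2a1 (adjusted p = 0.0584), whereas leaving out SFZ R3-Cntl 2, DZ R3-Cntl 1 or DZ R3-Cntl 2 left 0 genes called, and leaving out SFZ R3-Cntl 3 or DZ R3-Cntl 3 left 3 and 4 genes. A single model of all 12 libraries called 798 genes and 2 members in R3-Cntl, Col11a1 (adjusted p = 0.0281 in limma) and Col27a1 (0.0225). A block for the library number gave 831 genes and 4 members in R3-Cntl. Values over all genes did not pair SFZ R3-Cntl libraries 2 and 3 by number, so that block describes a shared number. In R3-cKO, limma called 0 of 7 members and 0.0176% of 11336 genes, or 2 genes, and 5 of 7 members had an unadjusted p under 0.05, against 3.03%. Here the background of 344 genes was 702 with quantile normalization (4 members) and 661 with median-of-ratios size factors (5 members). The count of members with an unadjusted p under 0.05 was 3 without SFZ R3-cKO library 3 and 7 without SFZ R3-cKO library 1. The log2 differences there ran from 0.85 for Col27a1 to 1.54 for Col2a1. Without SFZ R3-cKO library 3 those of Col9a2 and Col9a3 went from 1.28 and 0.92 to 0.64 and 0.46, and without DZ R3-cKO library 3 that of Col27a1 was 0.55. With the library number as a block, 352 genes and 0 members were called in R3-cKO, and without it 5 genes were called when SFZ R3-cKO library 3 was left out, 1 when SFZ R3-cKO 2 was, and 0 when SFZ R3-cKO 1 or any of DZ R3-cKO 1, 2 and 3 was. The plot of zone differences places the 3 estimates of each gene side by side, and the R3-Cntl and R3-cKO estimates share no library.

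**Figure D3:**
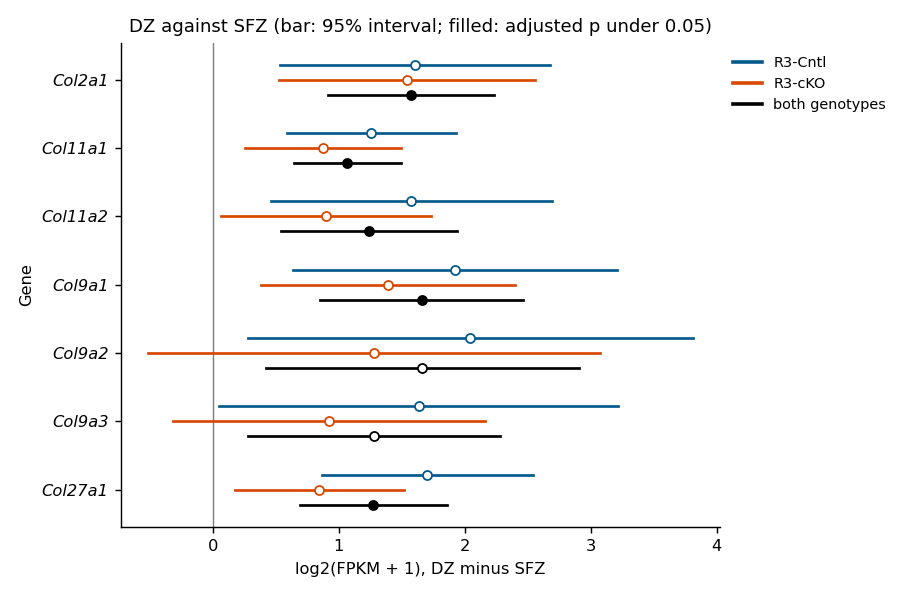
Difference between zones in log2(FPKM + 1), DZ minus SFZ (horizontal axis), for each gene in R3-Cntl, in R3-cKO and over both genotypes, with 95% intervals and filled points where the adjusted p is under 0.05. All points lie above 0, and those over both genotypes run from 1.07 for Col11a1 to 1.66 for Col9a1 and Col9a2.

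Genes that act with these collagens also differed by zone. All 3 SOX factors that drive cartilage collagen transcription were called higher in the DZ, Sox9 by 0.80, Sox6 by 0.72 and Sox5 by 0.54 in log2. Of 12 tested partners in the cartilage matrix, 8 were called higher and 0 lower, with a median of 1.24, against 506 higher and 2219 lower of all 11765 genes. Among them were the small proteoglycan Epyc (3.05), the matrilins Matn1 (2.22) and Matn3 (2.12), which bridge fibrils to other matrix proteins, and the large proteoglycan Acan (2.11). The fibrillar collagens of other connective tissues showed the opposite direction, with 6 of 7 called lower in the DZ and 0 higher, where 2219 of 11765 genes were lower, or 915 with quantile normalization. Col24a1, among those 6, passed the filter through the SFZ alone. Col1a1 differed by -3.73, Col1a2 by -3.20, Col3a1 by -2.34 and Col5a1, the type V counterpart of Col11a1, by -1.11, while Col5a2 (-0.57, adjusted p = 0.176 in limma) was not called. Of 3 tested FACIT collagens outside type IX, which like it decorate fibrils, Col14a1 (-3.45) and Col12a1 (-1.72) were lower in the DZ, and Col14a1 passed the filter through the SFZ alone.

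Of 19 tested genes for collagen modification, folding and export, 8 were called higher in the DZ and 1 lower, with a median log2 difference of 0.23. Beside these and the counts that follow stand 4.3% of genes called higher and 23.2% called in either direction. The lysyl hydroxylase Plod2 differed by 1.30, the prolyl hydroxylase subunit P4ha2 by 0.94, the galactosyltransferase Colgalt2 by 1.67 and Creb3l2, a transcription factor of the secretory pathway in chondrocytes, by 0.96. P3h3 was lower by a log2 difference of -0.57, and Serpinh1, the collagen chaperone HSP47, was level at 0.00. The 11 tested genes of propeptide removal and cross-linking were mixed, with Loxl2 (1.53) and Loxl3 (1.08) higher and Adamts2 (-1.97), Loxl1 (-1.54), Pcolce (-1.23) and Adamts3 (-0.91) lower. Of 5 tested collagen-degrading proteases, Mmp14 (-1.57) was called, lower in the DZ. Of 7 collagen receptors, Ddr1 (0.58) was higher and Itga11, Itga1, Itgb1 and Ddr2 were lower. Of 7 hypertrophy genes, Pth1r (1.10) was higher and Col10a1 was not called (2.24, adjusted p = 0.0913 in limma), and of the 4 genes of RUNX factors and their partner Cbfb, Runx2 (-0.44) was lower.

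Markers of cell types moved with zone as well. All 7 tested chondrocyte markers, which are Sox9 and 6 of the matrix partners already counted, were called higher in the DZ, against 4.3% of genes. They summed to 4025, 1121 and 1847 FPKM in SFZ R3-Cntl libraries 1, 2 and 3, 3405, 1779 and 1926.5 FPKM in SFZ R3-cKO, 9194, 5498 and 8001 FPKM in DZ R3-Cntl, and 5944, 3008 and 7824 FPKM in DZ R3-cKO. Cnmd was the most abundant of them. All 7 markers of fibroblasts and perichondrium were lower in the DZ, against 2219 of 11765 genes. Cd34 and Dpt reached 1 FPKM in 3 libraries only through the SFZ, so their direction was close to fixed by the filter. The 7 summed to 216, 663 and 188 FPKM in SFZ R3-Cntl, 208, 159.6 and 1074 FPKM in SFZ R3-cKO, 3.13, 11.2 and 38.0 FPKM in DZ R3-Cntl and 6.84, 14.4 and 18.9 FPKM in DZ R3-cKO. Sfrp2 was their most abundant gene, and Dpt was at 0 in DZ R3-Cntl library 1. The SFZ libraries with the highest fibroblast sums, R3-Cntl 2 and R3-cKO 3, were those with the lowest Col2a1. The DZ did not show this order. There the highest fibroblast sum, in R3-Cntl 3, went with the highest Col11a1 and Col27a1 of the zone. DZ R3-cKO 2, the lowest DZ library for all 7 members, had a fibroblast sum of 14.4 FPKM.

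All 7 macrophage markers were called lower in the DZ too, against the same 2219 of 11765 genes, with Lyz2 the most abundant. Only Lyz2 and Cd68 passed the filter on DZ libraries, and the other 5 entered through the SFZ, which nearly fixed their direction. The 7 summed to 167, 139 and 7.17 FPKM in SFZ R3-Cntl, 137, 14.4 and 64.4 FPKM in SFZ R3-cKO, 7.62, 6.70 and 23.0 FPKM in DZ R3-Cntl and 6.02, 4.39 and 3.52 FPKM in DZ R3-cKO, where Adgre1, C1qa and C1qb were at 0 in library 3. Of 6 tested osteoblast markers 3 were called lower, Ibsp (0.75) and Sp7 (0.24) had higher estimates, and Col1a1, which bone, fibroblasts and perichondrium all express, was the most abundant. All 8 listed summed to 1975, 3922 and 2211 FPKM in SFZ R3-Cntl, 2021, 1906 and 4852 FPKM in SFZ R3-cKO, 113, 333 and 1172 FPKM in DZ R3-Cntl and 97.7, 271 and 642 FPKM in DZ R3-cKO, with Dmp1 at 0 in DZ R3-Cntl 1 and Bglap at 0 in DZ R3-cKO 2. Of 5 tested superficial zone markers Thbs4 and Abi3bp were called lower in the DZ, and Thbs4 passed the filter through the SFZ alone. Prg4, or lubricin, was not called over both genotypes (-1.32, adjusted p = 0.0576 in limma) but was in R3-Cntl (-2.36, adjusted p = 0.0485) and not in R3-cKO (-0.27, adjusted p = 0.88). The difference between genotypes in its zone effect was 2.09 and was not called (adjusted p = 0.999 in limma). The R3-Cntl call was lost, with 0 genes called, without a filter or without SFZ R3-Cntl 2, DZ R3-Cntl 1 or DZ R3-Cntl 2. From 140 genes, the R3-Cntl calls fell to 1 with quantile normalization, 8 at a mean of at least 10 FPKM and 17 with median-of-ratios size factors. They were 88 and 29 with pseudocounts of 0.1 and 5, and 798 in a single model of all 12 libraries. Whether Prg4 was among these is not given here. Gdf5 had a higher estimate in the DZ (0.89, adjusted p = 0.0596 in limma). All 6 listed summed to 264, 423 and 238 FPKM in SFZ R3-Cntl, 261, 183 and 717 FPKM in SFZ R3-cKO, 19.1, 40.3 and 90.4 FPKM in DZ R3-Cntl and 25.3, 43.7 and 74.9 FPKM in DZ R3-cKO, with Abi3bp the most abundant and Thbs4 at 0 in DZ R3-cKO library 3. Of the few tested markers of muscle (2 of 10), keratinocytes (2 of 7), osteoclasts (3 of 5) and adipocytes (1 of 3) none was called. SFZ R3-Cntl library 2, the lowest SFZ library for 6 of 7 members, stood apart in the muscle sum, at 123.3 FPKM against 4.95 to 19.7 FPKM elsewhere, and had the highest adipocyte sum, at 47.3 FPKM. Acta1 was the most abundant muscle marker and Fabp4 the most abundant adipocyte marker, and no endothelial or erythroid marker passed the filter. The endothelial markers, with Pecam1 the most abundant, summed to 5.6, 3.15 and 0.55 FPKM in SFZ R3-Cntl and 3.07, 0.73 and 0.68 FPKM in SFZ R3-cKO, and to at most 0.43 FPKM in a DZ library. The part of these markers in the zone difference of the cartilage fibril collagens was not tested.

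Between genotypes, the question was whether the libraries labelled R3-cKO differed in these collagens. In the DZ all 7 members had a lower mean under the R3-cKO label, at 0.569 times R3-Cntl for Col9a2, 0.628 for Col11a2, 0.639 for Col9a3, 0.65 for Col27a1, 0.685 for Col9a1, 0.745 for Col11a1 and 0.819 for Col2a1. In same-number pairs, 6 of 7 members were lower in 3 of 3, against 13.4% of genes, and Col2a1 in pair 3 was at 1.02 times. Groups did not overlap for 1 of 7, Col11a2, against 2.78% of genes. None of this passed the test across genes: limma called 0 of 7 members and 0% of 11091 genes, each member's adjusted p was 0.999, and 404 genes had an unadjusted p under 0.05. Without DZ R3-cKO library 3, 773 genes and 4 members did, and without DZ R3-Cntl 1 or DZ R3-cKO 2 no member did, with 222 and 211 genes. Without DZ R3-cKO library 1, 239 genes and 1 member did.

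The log2 difference in the DZ was -0.69 for Col11a2 (standard error 0.22), -0.88 for Col9a2 (0.48), -0.66 for Col27a1 (0.31), -0.65 for Col9a3 (0.37), -0.59 for Col9a1 (0.32), -0.44 for Col11a1 (0.25) and -0.29 for Col2a1 (0.30). Col11a2 was the 1 member with an unadjusted p under 0.05 and a lower level, against 1.15% of genes, and in a single model of all 12 libraries 0 members reached that level. The same held for 6 of 7 members with the library number as a block, all but Col2a1, against 4.98% of genes, when 1830 genes reached that level and 0 were called. The members' adjusted p with the block was 0.147 for Col27a1, 0.175 for Col11a2, 0.222 for Col9a2, 0.247 for Col9a1, 0.258 for Col11a1, 0.260 for Col9a3 and 0.688 for Col2a1. The median member differed by -0.65 and the median gene by 0.05. Members stayed lower under each scaling, except that quantile normalization set Col2a1, which ranks 1 in all DZ libraries, to 0.00. Without DZ R3-cKO library 2, the lowest DZ library, the differences shrank to between -0.50 for Col11a2 and -0.10 for Col2a1.

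Of the 12 tested cartilage matrix partners, 11 had a lower estimate in the DZ libraries labelled R3-cKO, with a median log2 difference of -0.43, against 4172 of 11091 genes, and 0 were called. The 7 chondrocyte markers, which are 6 of these partners and Sox9, had 6 lower estimates (median -0.44), and their sum was lowest in DZ R3-cKO library 2 at 3008 FPKM. Of 6 tested osteoblast markers 5 had a lower estimate (median -1.10), and 4 had an unadjusted p under 0.05, Alpl (-1.63), Bglap (-1.32), Bglap2 (-0.88) and Sp7 (-0.67), against 404 of 11091 genes in either direction. The macrophage marker Lyz2 was at -1.15, also with an unadjusted p under 0.05, and 2 of 7 macrophage markers were tested. The part of these markers in the genotype difference of the members was not tested. The Y-linked genes were at or near 0 in the same R3-cKO libraries 2 and 3, and their part in the result was not tested.

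In the SFZ the estimates were small and of mixed sign. The log2 difference was -0.22 for Col2a1 (standard error 0.53), -0.06 for Col11a1 (0.29), -0.01 for Col11a2 (0.55), -0.06 for Col9a1 (0.62), -0.12 for Col9a2 (0.95), 0.07 for Col9a3 (0.77) and 0.20 for Col27a1 (0.33). Limma called 0 of 7 members and 0% of 11537 genes, and 34 genes had an unadjusted p under 0.05. That number was 1204 without SFZ R3-cKO library 2, 101 without SFZ R3-Cntl 1 (with 1 member), 51 without SFZ R3-cKO 1 and 12 without SFZ R3-cKO 3. The errors were larger than the differences, and a single library set the direction: without SFZ R3-Cntl library 2 all 7 members were lower under the R3-cKO label (Col9a2 -0.88), and without SFZ R3-Cntl library 1 all 7 were higher (Col9a2 0.65), as they were without SFZ R3-cKO library 3. The difference between zones in the genotype effect was tested as an interaction, for which limma called 0 of 7 members and 0% of 11765 genes, with 99 at an unadjusted p under 0.05. Left-out libraries moved that number to 714 (SFZ R3-cKO 2), 421 with 2 members (SFZ R3-Cntl 1), 329 with 1 member (DZ R3-cKO 3), 174 (DZ R3-Cntl 2), 62 (DZ R3-cKO 2), 55 (SFZ R3-cKO 3 or DZ R3-Cntl 1), 52 (SFZ R3-Cntl 3) and 36 (SFZ R3-Cntl 2). Its estimates ran from -0.06 for Col2a1 to -0.86 for Col27a1 (standard error 0.49). Without SFZ R3-Cntl library 2 that of Col27a1 was -0.54, that of Col9a2 went from -0.76 to 0.00 and that of Col11a2 from -0.67 to -0.21. Without SFZ R3-Cntl library 1 they were -1.22, -1.54 and -1.19, and that of Col9a3 went from -0.71 to -1.44. Quantile normalization, which gives the gene of rank 1 the same value in each library, turned that of Col2a1 to 0.43.

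**Figure D4:**
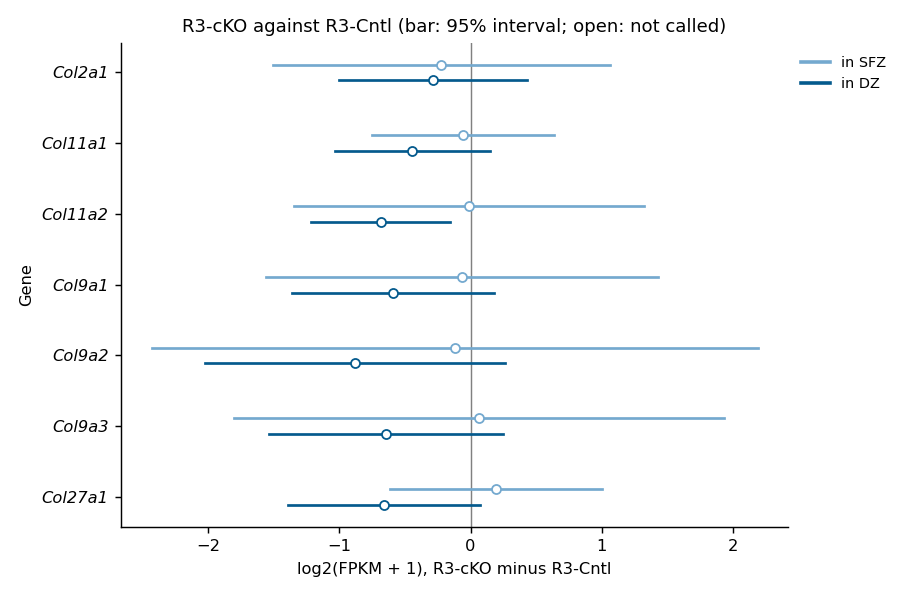
Difference between genotypes in log2(FPKM + 1), R3-cKO minus R3-Cntl by label (horizontal axis), for each gene in the SFZ and in the DZ, with 95% intervals and open points because no gene was called. In the DZ the points run from -0.88 for Col9a2 to -0.29 for Col2a1, and in the SFZ from -0.22 to 0.20.

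Ratios between chains within a library are not changed by multiplying a library by a size factor, though quantile normalization can change them, and 12 were tested by an exact two-sided permutation test with labels permuted within genotype, whose smallest p over 400 arrangements is 0.005. Between zones 5 of the 12 had a p under 0.05, with no adjustment over the 12. Among the 5 are Col1a1 to Col2a1 and Col5a1 to Col11a1, which divide genes called lower in the DZ by genes called higher. The ratio of Col11a1 to Col2a1 was 0.142, 0.213 and 0.127 in SFZ R3-Cntl libraries 1, 2 and 3, 0.133, 0.155 and 0.264 in SFZ R3-cKO, 0.0966, 0.131 and 0.148 in DZ R3-Cntl, and 0.0983, 0.115 and 0.1203 in DZ R3-cKO. It was highest in SFZ R3-Cntl 2 and SFZ R3-cKO 3, and the zones overlapped. The mean was 0.172 ± 0.0545 in the SFZ and 0.118 ± 0.0198 in the DZ (SD, n = 6 each, log2 difference -0.51, exact p = 0.035), so DZ libraries held less Col11a1 for each unit of Col2a1. With pairs of the same number (1 of 6 higher in the DZ) the exact sign-flip p was 0.0625, where 0.03125 is the smallest possible.

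Within type IX collagen, the ratio of Col9a3 to Col9a2 was 1.36, 1.77 and 1.28 in SFZ R3-Cntl libraries 1, 2 and 3, 1.18, 1.82 and 2.13 in SFZ R3-cKO, 1.08, 1.21 and 1.01 in DZ R3-Cntl, and 1.15, 1.63 and 1.15 in DZ R3-cKO. Its mean was 1.59 ± 0.371 in the SFZ and 1.20 ± 0.220 in the DZ (SD, n = 6 each, log2 difference -0.39, exact p = 0.045), and it was lower in the DZ in all 6 same-number pairs. The ratio of Col9a1 to Col9a3 was 1.23, 1.69 and 1.63 in SFZ R3-Cntl, 1.19, 1.25 and 1.73 in SFZ R3-cKO, 1.48, 1.81 and 2.29 in DZ R3-Cntl, and 1.68, 1.94 and 2.11 in DZ R3-cKO. Its mean was 1.45 ± 0.254 in the SFZ and 1.88 ± 0.293 in the DZ (SD, n = 6 each, log2 difference 0.38, exact p = 0.045), higher in the DZ in 6 of 6 pairs. By these estimates Col9a3 was the type IX chain with the smaller zone difference, at p-values not adjusted over the ratios tested. Col9a1 to Col9a2 differed by a log2 of -0.01 (exact p = 0.985) and Col11a1 to Col11a2 by -0.17 (exact p = 0.415).

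The p of these 3 ratios was near the threshold, and leaving out a library often moved it to 0.05 or above while the difference kept its sign: the log2 difference ran from -0.51 to -0.30 for Col9a3 to Col9a2, 0.30 to 0.46 for Col9a1 to Col9a3, and -0.61 to -0.36 for Col11a1 to Col2a1. For Col9a3 to Col9a2 the exact p was 0.12 without SFZ R3-cKO library 3, 0.115 without DZ R3-cKO 1 or 3, 0.105 without SFZ R3-cKO 2, 0.07 without SFZ R3-Cntl 2 and 0.065 without DZ R3-Cntl 3. For Col9a1 to Col9a3 it was 0.095 without SFZ R3-Cntl 1 or DZ R3-Cntl 3, 0.075 without DZ R3-Cntl 2, 0.07 without DZ R3-cKO 2 or 3, 0.065 without SFZ R3-cKO 1 or 2, and 0.05 without SFZ R3-Cntl 2 or 3. For Col11a1 to Col2a1 it was 0.085 without DZ R3-Cntl 1, 0.075 without SFZ R3-Cntl 2, 0.07 without DZ R3-cKO 1, 0.065 without DZ R3-cKO 2, 0.06 without DZ R3-cKO 3, 0.055 without SFZ R3-cKO 3 and 0.05 without DZ R3-Cntl 2.

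The ratios of connective tissue to cartilage chains parted the zones fully. Col1a1 and Col5a1 were called lower in the DZ, and Col2a1 and Col11a1 higher, in the same libraries. The direction of these ratios followed from those calls and is no separate result. Col1a1 to Col2a1 was 0.201, 1.14 and 0.314 in SFZ R3-Cntl, 0.234, 0.368 and 1.57 in SFZ R3-cKO, 0.00107, 0.017 and 0.0548 in DZ R3-Cntl, and 0.00338, 0.0217 and 0.0323 in DZ R3-cKO (log2 difference -5.32, exact p = 0.005). Col1a1 thus exceeded Col2a1 in SFZ R3-Cntl 2 and R3-cKO 3 alone. Col5a1 to Col11a1 was 0.147, 0.444 and 0.293 in SFZ R3-Cntl, 0.204, 0.222 and 0.323 in SFZ R3-cKO, 0.0346, 0.0574 and 0.0599 in DZ R3-Cntl, and 0.0633, 0.0712 and 0.0590 in DZ R3-cKO (log2 difference -2.19, exact p = 0.005). Both ratios were lower in the DZ in all 6 pairs. The sums of fibroblast markers, and of osteoblast markers, which include Col1a1, were also lower in each DZ library than in each SFZ library. Their part was not tested.

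Between genotypes 0 of 12 ratios had a p under 0.05 in either zone, and 3 libraries against 3 cannot give an exact p below 0.1. In the DZ, 3 ratios did not overlap between genotypes and sat at that exact p of 0.1: Col9a1, Col9a2 and Col11a2, each to Col2a1. That 0.1 is also the share of label arrangements that leave 3 libraries against 3 without overlap. The 3 ratios share Col2a1 as their denominator and are not independent. Col11a2 to Col2a1 was 0.0502, 0.0597 and 0.0548 in DZ R3-Cntl libraries 1, 2 and 3 and 0.0417, 0.0414 and 0.0413 under the R3-cKO label. The log2 differences of these ratios were -0.31 for Col9a1, -0.60 for Col9a2 and -0.40 for Col11a2, and each was lower in each of 3 pairs. The ratios of Col9a3 and Col27a1 to Col2a1 were also lower in each of 3 pairs, with groups that overlapped (exact p = 0.2 and 0.3). Without DZ R3-cKO library 2 the log2 differences of Col9a1 and Col9a2 to Col2a1 shrank to -0.18 and -0.29. The lowest exact p in the SFZ was 0.4.

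**Figure D5:**
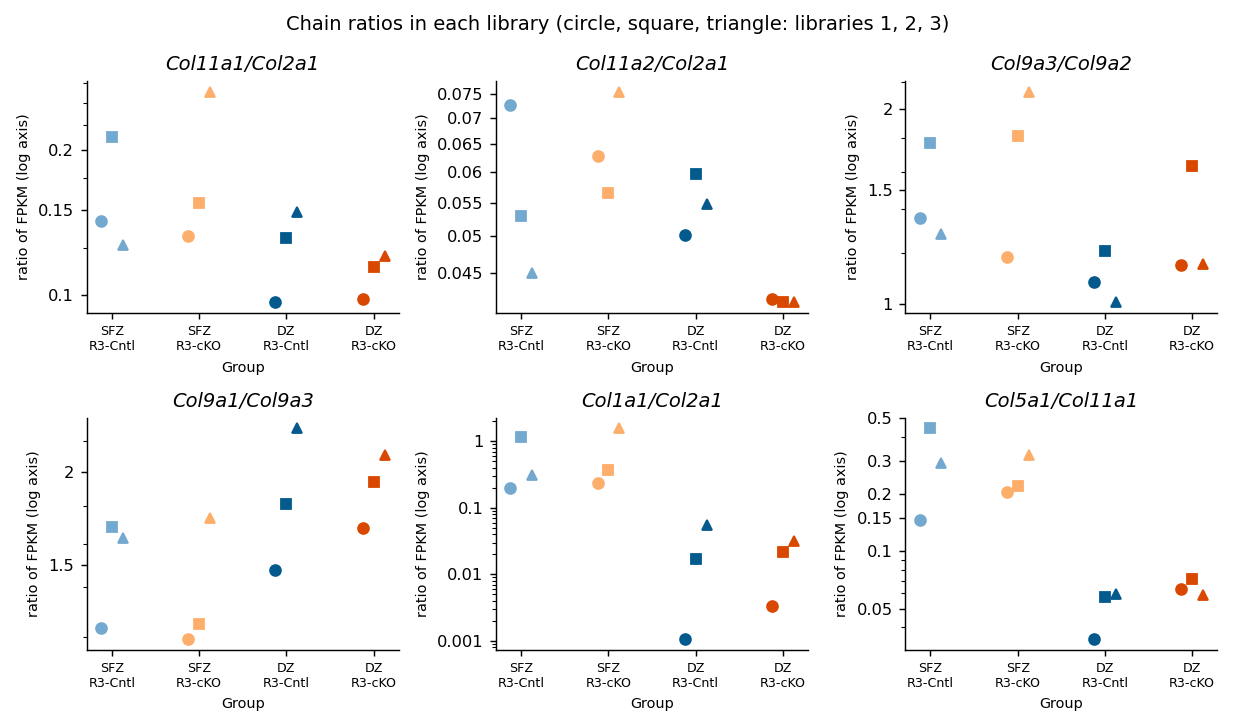
Ratio of FPKM between chains (log axis) in each library of the 4 groups, for 6 of the 12 ratios, with marker shape for the library number. Col1a1/Col2a1 and Col5a1/Col11a1 are lower in each DZ library than in each SFZ library, and Col11a2/Col2a1 is 0.0413 to 0.0417 in the DZ libraries labelled R3-cKO.

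Across the 12 libraries the members varied together. Pearson's r of log2(FPKM + 1) between members ran from 0.838 for Col9a3 and Col27a1 to 0.990 for Col9a2 and Col9a3 and for Col9a1 and Col11a2, a description over points that share the zone difference. Within the 6 DZ libraries r was 0.984 for Col9a2 and Col9a3, 0.987 for Col11a1 and Col27a1, and 0.576 for Col9a3 and Col27a1. The closest member was not always the same within a zone: Col9a1 was closest to Col11a2 over 12 libraries and in the SFZ (0.996) but to Col9a2 in the DZ (0.970, against 0.953 for Col11a2), and Col11a1 was closest to Col11a2 in the SFZ (0.978, against 0.862 for Col27a1). Among 11358 genes compared, the closest to Col2a1 were Fam20b (0.987), a kinase of proteoglycan linkage sugars, Ak4 (0.981), the growth factor Igf2 (0.980), Col9a1 (0.975) and Acan (0.975). Col9a1 was closest to Kctd4 and Col11a2 (0.990 each) and Zfp385b (0.980), and Col11a2 to Col9a1 (0.990), Fam135a (0.985) and Kctd4 (0.978). Col9a2 was closest to Col9a3 (0.990), 3110079O15Rik (0.984) and Colgalt2 (0.973), and Col9a3 to Col9a2, 3110079O15Rik (0.988) and Rlbp1 (0.985). Col11a1 was closest to Plxnb1 (0.980), Col27a1 (0.977) and Map3k21 (0.975), and Col27a1 to Col11a1, Peg3 (0.974) and Lztfl1 (0.965).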

How the data were processed

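RNA-seq of SFZ and DZ chondrocytes was analysed, with 3 libraries per zone and genotype. The authors mapped reads to mm9 (Bowtie 0.12.2 is named in the submitters' processing notes) and deposited 1 value per gene and library, which behaves as FPKM scaled by TMM; the unit was inferred from the values, and 0 columns were left unmapped. Depth was estimated from the steps between low values. Values were fitted as log2(FPKM + 1) with limma 3.58.1 in R 4.3.3 for genes that reached 1 FPKM in 3 or more fitted libraries, with a mean-variance trend and Benjamini-Hochberg adjustment over all genes, after the code was tested on simulated data. Chain ratios were compared by exact two-sided permutation tests in Python 3.11.15 with NumPy 2.4.6 and pandas 2.3.3, and plots used matplotlib 3.10.9.

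Named genes were the 7 members, list genes called or next to a call, and, as nearest genes, those with the highest Pearson r to each member. The members and lists were chosen with earlier results of these data known. Alternatives were median-of-ratios size factors, quantile normalization, a pseudocount of 0.1 or 5, a filter on a mean of 10 FPKM or none, all 12 libraries in a single model, the library number as a block, arithmetic means for ratios, and each library left out. Same-number libraries deviated together over 11359 genes in the DZ (r = 0.653, 0.781 and 0.687 between genotypes) and in R3-cKO (0.418, 0.781 and 0.653 between zones), and the study describes littermates. In these comparisons libraries of the same number were read as pairs because of those correlations. The labels do not say what libraries of the same number share.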

Additional observations from a re-analysis of the deposited data

How the results depend on the processing

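The 7 members kept a higher DZ level under every alternative in both genotypes, singly and together, and 0 members and 0 genes were called between genotypes or for the interaction under any alternative. Of the other alternative values for single genes and ratios, 955 kept direction and side of the threshold, 23 moved past the threshold, 25 moved back across it and 51 changed sign. In R3-Cntl, where 140 genes and 0 members were called between zones, 0 genes were called with no filter, 8 at a mean of at least 10 FPKM, 88 and 29 with pseudocounts of 0.1 and 5, 1 with quantile normalization and 17 with median-of-ratios size factors. The replicate block gave 831 genes and 4 members, and a single model of all libraries 798 and 2. In R3-cKO, where 2 genes were called, these gave 7 (no filter), 0 (mean of at least 10 FPKM), 1 and 1 (pseudocounts), 352 (replicate block) and 165 (single model). Over both genotypes a mean of at least 10 FPKM left fewer genes tested and 1162 called, and the replicate block gave 3965 genes and 7 members. Numbers of SFZ R3-Cntl libraries did not pair them with R3-cKO (r = 0.787, -0.094 and -0.415 for numbers 1, 2 and 3) or with the DZ (0.575, 0.111 and -0.151), so the block describes a shared number there. SFZ R3-Cntl 2 and 3 were closer to libraries of the other number (r = 0.449 and 0.688 with SFZ R3-cKO 3 and 2, 0.380 and 0.580 with DZ R3-Cntl 3 and 2). Nothing was exchanged, and same-number pairs that include them rest on the numbers as given. The block put 949 genes at an unadjusted p under 0.05 for the interaction.

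Quantile normalization, which gives the gene of rank 1 the same value in each library, turned the interaction of Col2a1 to 0.43. Ratios of arithmetic means turned Col9a1/Col9a2 (0.15) and Col9a2/Col2a1 (-0.10) between zones, Col9a1/Col9a2 (-0.021), Col11a1/Col11a2 (0.053) and Col9a1/Col2a1 (-0.02) between SFZ genotypes and Col1a1/Col2a1 (-0.20) between DZ genotypes. The cause of these turns in the ratios was not tested.

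With each library left out, members called ran from 0 to 6 and genes from 0 to 505 between zones in R3-Cntl, genes from 0 to 5 in R3-cKO, and 5 to 7 members and 1624 to 2899 genes over both genotypes. The SFZ genotype difference ran from -0.65 to 0.14 (Col2a1), -0.60 to 0.52 (Col9a1), -0.88 to 0.65 (Col9a2), -0.56 to 0.79 (Col9a3), -0.27 to 0.20 (Col11a1), -0.47 to 0.51 (Col11a2) and -0.12 to 0.56 (Col27a1), and the interaction from -0.42 to 0.36 (Col2a1) and -1.11 to 0.012 (Col9a1). Ratios past the threshold between zones numbered 2 to 5 of 12, and Col9a1/Col9a2 ran from -0.18 to 0.16 and Col9a2/Col2a1 from -0.073 to 0.32. Between SFZ genotypes the ranges were -0.29 to 0.40 (Col9a1/Col9a2), -0.31 to 0.21 (Col11a1/Col11a2), -0.13 to 0.39 (Col11a1/Col2a1), -0.24 to 0.55 (Col9a2/Col2a1), -0.50 to 1.03 (Col1a1/Col2a1) and -0.56 to 0.24 (Col5a1/Col11a1), and between DZ genotypes -0.10 to 0.22 (Col9a1/Col9a3) and -1.20 to 1.65 (Col1a1/Col2a1). The cause was not tested.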
